A study of Mus musculus with 66 samples.

Results

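The genes described here are 42 muscle contractile and differentiation genes, a list of sarcomere, excitation, fusion and muscle membrane genes chosen by symbol. Of these, 41 were listed among the 15777 genes of the 3′READS table, in which reads mark the 3′ ends of polyadenylated transcripts, and 25 were listed among the 9999 genes of the RNA-seq table, which counts reads in coding regions. A gene was taken as expressed where its libraries averaged 10 reads or more, which held for 31 members in 3′READS, 21 in RNA-seq, 33 in at least one of the assays and 19 in both. Tnni2 was listed in RNA-seq alone.

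The cells were C2C12, a mouse myoblast line that can be induced to fuse into myotubes, and all cultures received 50 nM siRNA for 48 h. The groups were siCtrl (a control siRNA, labelled siNS), siPaf1, siCdc73 and siSki8, each directed against the subunit of the same name of the polymerase associated factor complex (Paf1C), which travels with elongating RNA polymerase II. The siCtrl, siPaf1 and siCdc73 libraries were made in batches 1 and 2 and siSki8 in batch 2 alone, giving 7 libraries per assay. No source says whether the batches were separate cultures, so p-values measure the spread between these libraries, which may be technical.

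Striated muscle contracts by the sliding of thick filaments of myosin along thin filaments of actin, tropomyosin and troponin. Titin and the Z-disc hold the filaments in register, and the intermediate filament protein desmin ties neighbouring myofibrils together. Myoblasts carry low levels of most sarcomere transcripts, and many of these genes are switched on when the cells leave the cell cycle and fuse. The fetal acetylcholine receptor, built from subunits that include Chrna1, Chrnd and Chrng, appears during the same program. In bulk RNA, a change in the number of cells of a type and a change in RNA per cell cannot be told apart.

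Counted reads per library were 2796693 to 8160386 in RNA-seq, summed over 1 transcript per gene, and 5302728 to 14340927 in 3′READS, summed over all listed sites. These sums are not the full sequencing depth. The targeted transcripts were reduced in every knockdown library, to between 4.62% and 22.4% of the siCtrl library of the same batch in RNA-seq and to between 6.59% and 31.6% in 3′READS (Ski8 is listed as Wdr61). One library stood apart: in the 3′READS siPaf1 library of batch 2, 260 genes with at least 30 reads were more than 20-fold above every other library, together 1.01% of its reads, and 0 of the 42 members were among them. Of 5 myoblast markers, Des, Cdh15, Cdh2 and Myf5 were read in every 3′READS library, whereas Myod1 had between 0 and 8 reads. Several defining markers of other lineages were at or near 0: Adipoq had at most 9 reads, Pecam1 at most 4, Ptprc at most 5, Syt1 at most 1 and Apoa1 at most 1. Other markers were read, with Runx2 at 73 to 920 reads, Kdr at 18 to 292 and Gap43 at 5 to 260. The macrophage marker Cd68 had 15 to 48 reads and the adipocyte marker Pparg 0 to 29. The keratin Krt14 had 2 and 5 reads in siCtrl and 21 and 91 in siPaf1. Their part in the results was not tested.

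Because a 3′READS read stands for one transcript end, levels can be compared between genes in that assay without a length correction. In siCtrl the member with most reads was Acta2, the smooth muscle α-actin that myoblasts also make, at 1641 and 1743 CPM (reads scaled to library size with edgeR's trimmed mean) in batches 1 and 2. Des followed at 1666 and 753 CPM, then Tpm2 at 671 and 371, Tpm1 at 250 and 518, Chrna1 at 144 and 325 and the fast regulatory light chain Mylpf at 40.8 and 155. The libraries of neighbouring genes in this order overlapped except between Des and Tpm2. The other 25 expressed members averaged 50.8 CPM (embryonic myosin heavy chain, Myh3) down to 0.473 CPM (myoglobin, Mb). Of the listed members, 10 were not expressed in 3′READS: Myh1, Myh2, Myh7, Myh8, Myom2, Actn2, Tcap, Cacna1s, Cav3 and Dmd. The highest count of any of these was 33 reads, for Myh1. In RNA-seq, Actn2, Cacna1s, Cav3 and Mb were under the same limit.

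The main 3′ ends of members on which the results turn are given here, because the 3′READS values are counts at these positions. Each line holds the 30 bases of the sense strand that end at the cleavage position, in build mm9 with GENCODE vM1 transcripts, and capitals mark the polyadenylation signal AATAAA or ATTAAA where one lay in that window.
Acta2, chr19:34316012-34316041, minus strand, last exon: aaaAATAAAtcagacatgtgctacccttaa
Myh3, chr11:66915759-66915788, plus strand, annotated transcript end: ccacatgcAATAAAgtttgccttgtttcaa
Tnnt1, chr7:4456171-4456200, minus strand, 1 base past an annotated end: tcaactgtcATTAAAgagagttcaagttca
Myl1, chr1:66970875-66970904, minus strand, last exon: tacatcAATAAActtggtcagtctggaata
Tpm1, chr9:66875781-66875810, minus strand, upstream of the last exon: cgcccagtgtaaAATAAAcactgtacgcta
Ttn, chr2:76542037-76542066, minus strand, last exon: aaAATAAAgcaagctatctgcacctcaaaa
Ttn, chr2:76752000-76752029, minus strand, upstream of the last exon: agcatgATTAAAcaccttcttggataccca
Either signal lay in this window at 53.8% of all 56283 sense sites of the table, and AATAAA at 39.8%.

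The promoters of some members share a motif. Among the 34 members whose RefSeq promoter window was used here (build GRCm38, 300 bases around the start), 5 held a CArG box, the site CC, 6 A or T bases, GG bound by serum response factor, against 1.81% of 27025 genes. These were Actc1, Acta1, Ldb3, Myom1 and Dmd. The E-box CAGCTG, the form that myogenic helix-loop-helix factors bind, was in 15 of 34 member windows (44.1%) and in 18.3% of all. Both motifs were searched on both strands. Capitals mark the CArG box in the 30 bases around it for both actins.
Actc1, chr2:114052903-114052932, minus strand: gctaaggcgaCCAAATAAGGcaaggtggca
Acta1, chr8:123894829-123894858, minus strand: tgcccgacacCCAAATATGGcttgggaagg

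Batch 2 stood above batch 1 for nearly all members in RNA-seq and for most in 3′READS. In RNA-seq, 20 of 21 expressed members were higher in batch 2 in siCtrl (median log2 difference 1.47, all expressed genes −0.02), 20 of 21 in siPaf1 (1.88, all genes −0.07) and 19 of 21 in siCdc73 (1.73, all genes −0.03). Mylpf showed the largest difference in each group, 2.86, 2.61 and 3.54. In 3′READS the same held for 22, 23 and 27 of 31 members, with medians of 0.79, 0.71 and 1.23 against at most 0.06 for all genes. Des and Tpm2, among the most read, were lower in batch 2 there, by −1.15 and −0.85 in siCtrl, −0.41 and −0.82 in siPaf1 and −1.16 and −1.11 in siCdc73. No label says how the batches differed, and with siSki8 made in batch 2 alone its values are set beside the batch 2 control.

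**Figure D1:**
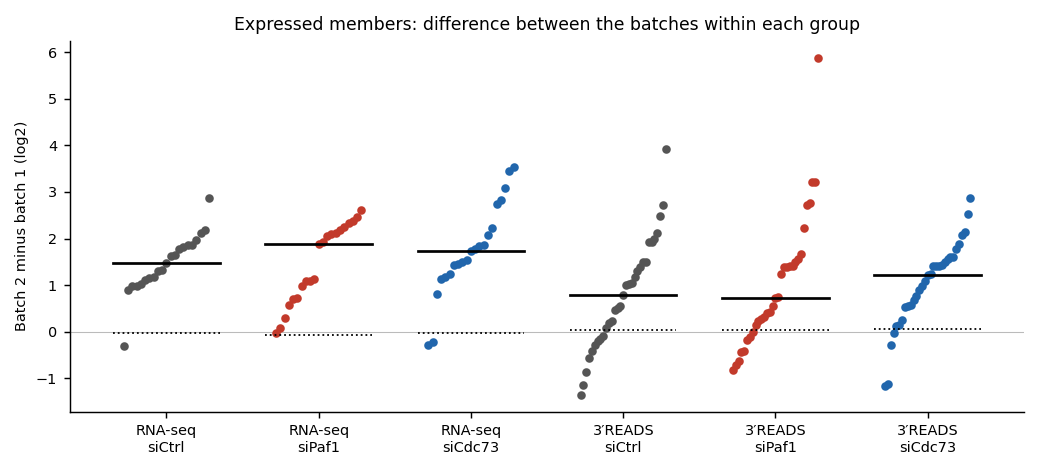
Each expressed member's level in batch 2 minus its level in batch 1 (log2 CPM), by group and assay, with solid lines for the medians of members and dotted lines for those of all expressed genes. Most points lie above 0, with medians of 1.47 to 1.88 in RNA-seq and 0.71 to 1.23 in 3′READS.

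This difference sets how the comparisons can be read. In edgeR's quasi-likelihood fit without a batch term, no member and no other gene passed an adjusted p of 0.05 in any of the 4 comparisons in either assay. At an unadjusted p under 0.05 that fit had, in RNA-seq, 5 of 24 members higher in siPaf1 and 1 higher and 2 lower in siCdc73. It had 1 higher in siSki8 and 4 higher in siPaf1 than in siCdc73. Of all 6521 genes it had 572 higher and 584 lower, 648 and 729, 160 and 201, and 453 and 406, in that order. In 3′READS the fit had 4 of 34 members higher in siPaf1, 2 lower in siCdc73 and 1 lower in siSki8. There 4 were higher in siPaf1 than in siCdc73. Of all 12579 genes, 891 were higher and 812 lower, 870 and 1059, 178 and 241, and 758 and 540. DESeq2 without a batch term called 1, 1, 0 and 4 members in RNA-seq and 2, 0, 0 and 3 in 3′READS, in the same order of comparisons. No share of all genes stands beside these DESeq2 counts, so they are not read as results about the members. The batch is given by the labels, and a fit with the batch as a block lowered the common biological coefficient of variation from 0.397 to 0.179 in RNA-seq and from 0.515 to 0.247 in 3′READS. Below, "rose" and "fell" mean an adjusted p under 0.05 in edgeR's quasi-likelihood test once the batch was a block, Benjamini-Hochberg over all genes tested, and log2 fold changes are from that fit with their standard error.

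Cells treated with siPaf1 were first compared with siCtrl. In siPaf1, Tnnt1, Tnnt3, Tpm1 and Chrng rose in both assays, Acta1 and Acta2 in 3′READS, and Myh1, Myom1 and Actc1 in RNA-seq. In RNA-seq 13 of 24 members tested rose (16.3% of all genes rose) and 0 fell (16.2% of all genes fell). There 0 members were lower at an unadjusted p under 0.05 (1335 of all 6521 genes) and 0 by DESeq2 in the same fit. In 3′READS 7 of 34 rose (9.74% of all genes) and 0 fell (9.08%). There 1 member was lower at an unadjusted p under 0.05 (1966 of all 12579 genes) and 0 by DESeq2. The median log2 fold change of the expressed members was 0.90 in RNA-seq (batch 1 0.78, batch 2 0.97) and 0.66 in 3′READS (0.37 and 0.84), where the median of all genes was 0.00 and 0.03. Both siPaf1 libraries lay above both siCtrl libraries for 6 members in RNA-seq (23.3% of all genes) and 12 in 3′READS (21.7%), and below them for 0 (23%) and 2 (21.1%). Without the batch 2 siPaf1 library that stood apart, 7 members rose in 3′READS and the median was 0.57. The members' summed 3′READS level was 4619 and 4147 CPM in siCtrl and 8531 and 9155 CPM in siPaf1. Most of this was Acta2, Tpm1, Tpm2 and Des, without which the sum was 392 and 762 CPM in siCtrl and 578 and 910.0 CPM in siPaf1, with ranges that overlapped.

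Of the thick filament genes, the fast myosin heavy chain Myh1 was at 0.559 and 2.19 CPM in siCtrl and at 14.7 and 68.4 CPM in siPaf1 in RNA-seq. Both siPaf1 libraries lay above both siCtrl libraries, and Myh1 rose by 4.49 ± 0.40 on the log2 scale (adjusted p = 1.96e-09), on 4 and 13 siCtrl reads. The skeletal myosin heavy chain genes lie in tandem and are near-identical. The authors kept uniquely mapped reads only, so reads that match more than 1 of these genes would be left out. In RNA-seq the neighbouring Myh4 was at 0.978 and 2.02 CPM in siCtrl and 0.144 and 2.09 CPM in siPaf1. At its own 3′ end Myh1 had 0 and 1 reads in siCtrl and 3 and 33 in siPaf1. Myom1, which crosslinks myosin tails at the M-band, was at 2.24 and 5.38 CPM in siCtrl and 8.63 and 18.8 CPM in siPaf1, without overlap, and rose by 1.74 ± 0.41 (adjusted p = 0.00171). The light chains Myl1 (4.47 and 14.6 CPM in siCtrl, 7.91 and 41.5 in siPaf1) and Mylpf (12.9 and 95.9, 23.3 and 144) rose by 1.17 and 0.72, with ranges that overlapped between the groups. In 3′READS none of the 7 thick filament genes tested rose, by edgeR at the adjusted threshold. At an unadjusted p under 0.05, 4 were higher, beside 2219 of all 12579 genes. Myh3, at 53.6 and 48.1 CPM in siCtrl, was at 63.2 and 168 CPM in siPaf1.

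By number, most of the calls were thin filament genes, 7 of 9 tested in RNA-seq and 5 of 12 in 3′READS. The share in RNA-seq was much the same for thick filament genes, with 4 of 5 called, but 0 of 7 were called in 3′READS. Of all genes, 16.3% rose in RNA-seq and 9.74% in 3′READS. Acta2 was at 1641 and 1743 CPM in siCtrl and 4848 and 4483 CPM in siPaf1 in 3′READS, the highest level of any member, and rose by 1.47 ± 0.27 (adjusted p = 0.00156). Acta1, the skeletal α-actin, was at 7.95 and 20.0 CPM in siCtrl and 30.2 and 50.5 CPM in siPaf1 and rose by 1.61 ± 0.31 (adjusted p = 0.00222). For both actins the siPaf1 libraries lay above the siCtrl libraries. Actc1, the cardiac α-actin that early skeletal muscle expresses, was at 5.73 and 21.9 CPM in siCtrl and 21.7 and 93.5 CPM in siPaf1 in RNA-seq, where it rose by 1.98 ± 0.30 (adjusted p = 5.1e-06). The upper siCtrl library and the lower siPaf1 library were level, so the call rests on the within-batch differences of 1.86 and 2.08. In 3′READS Actc1 had 1 read in each batch 1 library. Beside Acta2, other smooth muscle genes were also read. In 3′READS, Tagln had 15 and 85 reads in siCtrl and 57 and 198 in siPaf1, Cnn1 had 18 and 42 and then 69 and 133, and Myh11, the smooth muscle myosin heavy chain, had 0 to 18 reads in any library. Actg2, the enteric smooth muscle actin, was at 97.2 and 40.1 CPM in siCtrl and 192 and 204 CPM in siPaf1. In RNA-seq, Myh11 was at 0 and 0 CPM in siCtrl, 5.32 and 6.98 CPM in siPaf1 and 7.28 and 8.30 CPM in siCdc73. The part of smooth-muscle-like expression in the actin values was not tested.

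Tnnt1, the slow skeletal troponin T that holds the troponin complex on tropomyosin, rose in both assays. It was at 5.31 and 13.6 CPM in siCtrl and 17.8 and 68.7 in siPaf1 in RNA-seq, and at 15.2 and 21.6 against 31.1 and 73.8 CPM in 3′READS. No siCtrl library reached the siPaf1 libraries in either assay, and the log2 changes were 2.02 ± 0.32 (adjusted p = 1.25e-05) and 1.39 ± 0.32 (adjusted p = 0.00625). The fast isoform Tnnt3 rose by 1.70 ± 0.37 and 1.62 ± 0.44, from 1.96 and 9.75 CPM to 6.18 and 35.9 CPM in RNA-seq. The inhibitory subunits Tnni1 and Tnni2 rose by 0.81 and 1.62 in RNA-seq. Cardiac Tnnt2, the calcium-binding subunits Tnnc1 and Tnnc2, and Tpm2 did not pass the test. Tnnt2, for example, was at 61.6 and 155 CPM in siCtrl and 72.5 and 158 CPM in siPaf1 in RNA-seq.

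Tpm1, the α-tropomyosin that covers the myosin sites on actin, was at 491 and 963 CPM in siCtrl and 1206 and 1952 CPM in siPaf1 in RNA-seq, and at 250 and 518 against 697 and 2056 CPM in 3′READS. The groups did not overlap in either assay, and it rose by 1.16 ± 0.22 (adjusted p = 0.000105) and 1.75 ± 0.28 (adjusted p = 0.000543). Neb, nebulin along the thin filament, rose by 1.04 ± 0.31 in RNA-seq, from 21.4 and 17.2 CPM to 30.9 and 50.9 CPM. At its last-exon 3′ end it had only 6 and 17 reads in siCtrl and 1 and 39 in siPaf1.

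Of the Z-disc and cytoskeletal genes, Ldb3, a Z-disc protein, rose in 3′READS by 1.78 ± 0.60 (adjusted p = 0.0493) on 6 and 15 siCtrl reads and 31 and 74 siPaf1 reads. The siCtrl reads all lay at sites upstream of the last exon, and the last-exon sites were read in batch 2 of siPaf1, with 11 and 6 reads, and in no other siPaf1 or siCtrl library. Des was at 697 and 1428 CPM in siCtrl and 1338 and 1978 CPM in siPaf1 in RNA-seq and rose by 0.71 ± 0.21. In 3′READS, Des was at 1666 and 753 CPM and then 1851 and 1392, and did not pass the test. Among the synaptic genes, Chrng, the γ subunit that marks the fetal acetylcholine receptor, rose in both assays. It was at 10.5 and 21.0 CPM in siCtrl and 36.2 and 71.9 CPM in siPaf1 in RNA-seq and at 11.7 and 7.85 against 50.3 and 30.7 CPM in 3′READS, with no overlap. The changes were 1.76 ± 0.28 (adjusted p = 1.65e-05) and 2.02 ± 0.33 (adjusted p = 0.000659), and the batches gave 1.76 and 1.76, and 2.09 and 1.94. Chrna1, the α subunit, did not pass the test and was at 581 and 1992 CPM in siCtrl and 755 and 737 CPM in siPaf1 in RNA-seq.

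The remaining expressed members were not called in siPaf1 in either assay. They include the calcium release and energy genes, all at low levels. The calcium channel Ryr1 was at 4.05 and 8.32 CPM in siCtrl, 5.03 and 13.7 CPM in siPaf1 and 3.04 and 6.25 CPM in siCdc73 in 3′READS. Creatine kinase Ckm had 0 to 35 reads per library in RNA-seq and 2 to 58 in 3′READS, calsequestrin Casq2 10 to 86 and myoglobin Mb 0 to 43. Tmem8c, the fusion protein myomaker, was at 4.05 and 16.1 CPM in siCtrl, 3.74 and 12.4 CPM in siPaf1 and 3.26 and 9.58 CPM in siCdc73. The receptor δ subunit Chrnd was at 4.95 and 5.86 CPM in siCtrl, 1.68 and 2.32 CPM in siPaf1 and 2.17 and 7.95 CPM in siCdc73. Both siPaf1 libraries were below both siCtrl libraries for Chrnd, with a change of −1.38 ± 0.49 that did not pass (adjusted p = 0.0614). Titin, Ttn, was at 3.15 and 22.03 CPM in siCtrl and 10.8 and 17.9 CPM in siPaf1 and was not called. Tnnc2 was at 15.3 and 5.86 CPM in siCtrl and 19.4 and 21.4 CPM in siPaf1 (1.03 ± 0.38, adjusted p = 0.073).

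**Figure D2:**
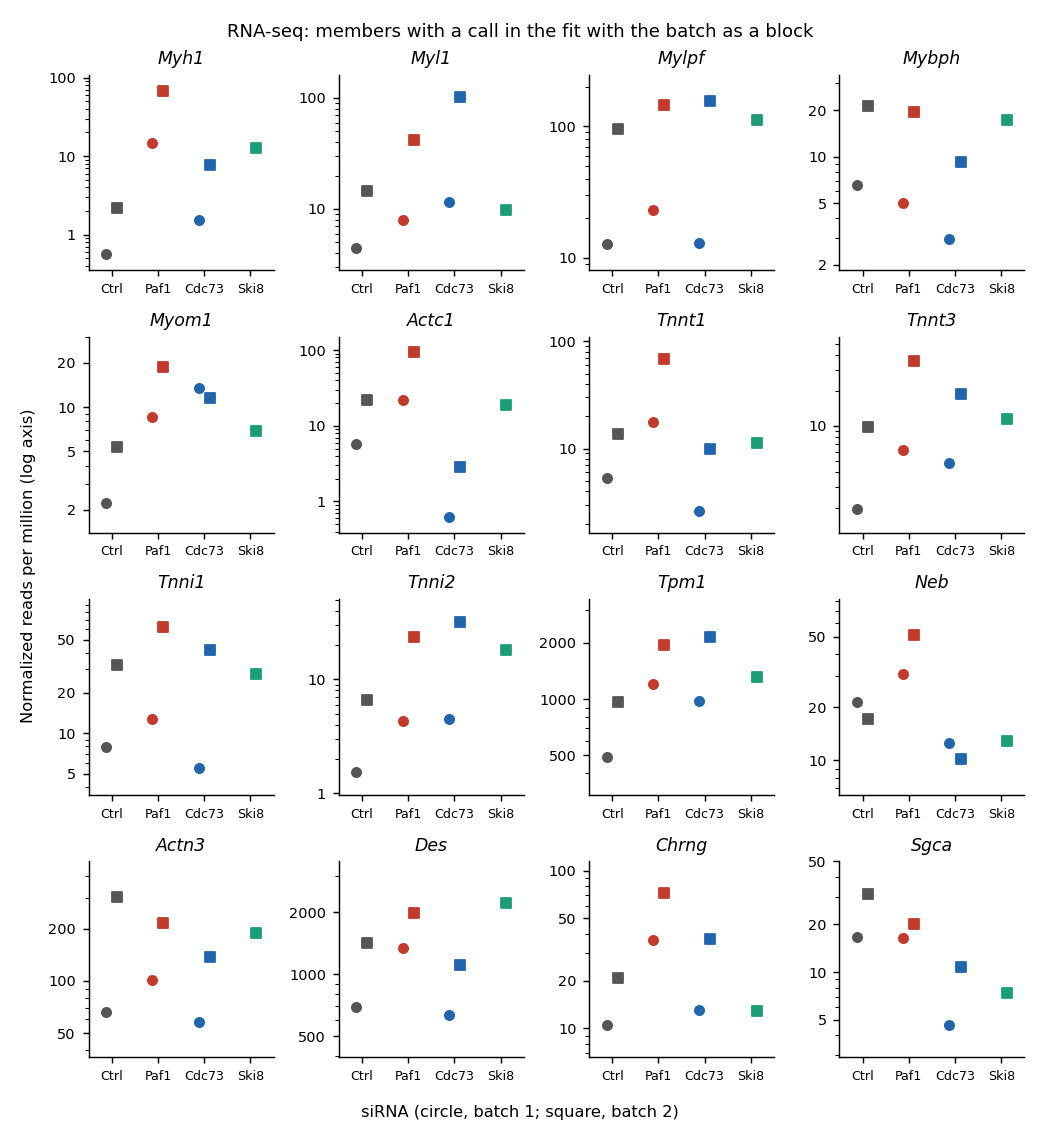
RNA-seq level (CPM, log axis) of the 16 members that changed in at least 1 RNA-seq comparison, with 1 point per library, colours for the groups, circles for batch 1 and squares for batch 2. Chrng, Tnnt1 and Myh1 have both siPaf1 points above both siCtrl points, whereas Actc1 has both siCdc73 points lowest.

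Leaving out each library in turn, with the block kept, 7 of the 13 RNA-seq calls held every time (Myh1, Myom1, Actc1, Tnnt1, Tnnt3, Tpm1 and Chrng) and 4 of the 7 in 3′READS (Acta1, Acta2, Tpm1 and Chrng). Without siCtrl of batch 2, 8 members were called in RNA-seq and 4 in 3′READS. Without the siPaf1 library that stood apart, Tnnt3 (adjusted p = 0.0505) and Ldb3 (adjusted p = 0.153) missed the threshold in 3′READS.

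The second knockdown compared with siCtrl was siCdc73. The myosin light chain Myl1 and Tpm1 rose in both assays and α-sarcoglycan (Sgca) fell in both, while Actc1 fell in RNA-seq and Acta2 and Tnnt1 in 3′READS. In RNA-seq 6 of 24 members rose (19.4% of all genes) and 4 fell (20.5%). In 3′READS 2 of 34 rose (10.8%) and 5 fell (11.8%). The shares of members called were near those of all genes in each direction. The median log2 fold change of the expressed members was −0.20 in RNA-seq (batch 1 −0.32, batch 2 0.27) and −0.07 in 3′READS (−0.23 and 0.06), beside −0.05 and −0.01 for all genes. Both siCdc73 libraries lay above both siCtrl libraries for 2 members in RNA-seq (24.9% of all genes) and 4 in 3′READS (22.8%), and below them for 3 (26.3%) and 6 (23.7%).

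Myl1 showed the largest increase of the members called, from 4.47 and 14.6 CPM in siCtrl to 11.6 and 101 CPM in siCdc73 in RNA-seq and from 0.300 and 1.80 to 2.17 and 17.2 CPM in 3′READS. It rose by 2.15 ± 0.33 (adjusted p = 6.28e-06) and 2.90 ± 0.52 (adjusted p = 0.00116), although at 3′ ends the control had only 2 and 19 reads. Tpm1 was at 977 and 2147 CPM in siCdc73 in RNA-seq and 711 and 1325 CPM in 3′READS, above both siCtrl libraries in each, and rose by 1.08 ± 0.22 and 1.44 ± 0.28. Myh1, Myom1, Tnnt3 and Tnni2 rose in RNA-seq by 1.45, 1.77, 1.02 and 1.89. Myom1 was at 13.5 and 11.5 CPM in siCdc73, above both control values, and Myh1 at 1.55 and 7.66 CPM, which overlapped the control.

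Among the genes that fell, Actc1 was at 0.619 and 2.87 CPM in siCdc73 in RNA-seq, against 5.73 and 21.9 CPM in siCtrl, a change of −2.73 ± 0.39 (adjusted p = 2.18e-06) on 4 and 9 reads. Acta2 was at 660 and 951 CPM in 3′READS, below both siCtrl values, and fell by 1.08 ± 0.27 on the log2 scale (adjusted p = 0.0089). Tnnt1 was at 3.47 and 10.9 CPM against 15.2 and 21.6 CPM and fell in 3′READS (−1.43 ± 0.34, adjusted p = 0.00678). In RNA-seq Tnnt1 was at 2.63 and 9.89 CPM and was not called. Myh3 was at 12.8 and 30.5 CPM and fell (−1.38 ± 0.36), and Tpm2, the β-tropomyosin, was at 347 and 161 CPM and fell (−1.08 ± 0.27). In these 3′READS genes both siCdc73 libraries were below both siCtrl libraries.

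Sgca, α-sarcoglycan of the dystrophin-associated membrane complex, fell in both assays. It was at 16.8 and 31.3 CPM in siCtrl and 4.64 and 10.9 CPM in siCdc73 in RNA-seq (−1.63 ± 0.34, adjusted p = 0.000323). In 3′READS it had 16 and 29 reads in siCtrl and 1 and 2 in siCdc73, and the fitted change of −3.01 ± 0.98 rests on those counts. Mybph, a myosin binding protein, and Actn3, the α-actinin of fast Z-discs, fell in RNA-seq by 1.13 and 0.71 on the log2 scale. Both had ranges that overlapped the control. With the block kept and each library left out in turn, Myl1, Actc1 and Sgca held every time in RNA-seq and Tpm1 in 3′READS. In RNA-seq 4 members were called without siCdc73 of batch 2, 5 without siCtrl of batch 2 and 6 without siCdc73 of batch 1. In 3′READS 3 were called without siCtrl of batch 1.

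**Figure D3:**
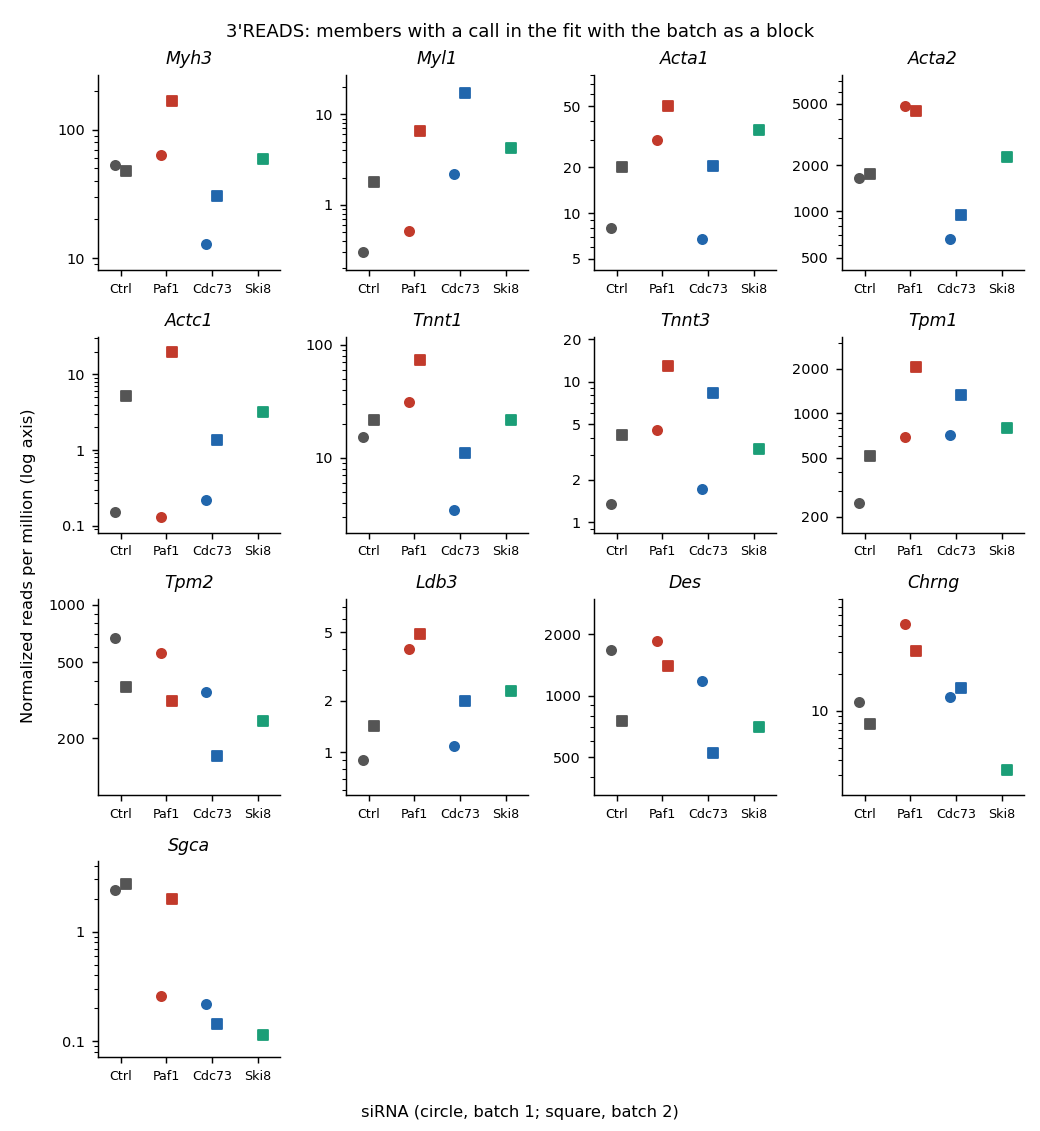
3′READS level (CPM, log axis) of the 13 members that changed in at least 1 3′READS comparison, with 1 point per library. The siPaf1 points lie above and the siCdc73 points below siCtrl for Acta2 and Tnnt1, and both lie above siCtrl for Tpm1.

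Because both comparisons share the siCtrl libraries, siPaf1 and siCdc73 were also compared directly, without the control. In RNA-seq 9 of 24 members were higher in siPaf1 (14.6% of all genes) and 1 lower (13.6%). In 3′READS 8 of 34 were higher (8.08%) and 1 lower (6.3%). The median log2 difference was 0.73 in RNA-seq (batch 1 0.80, batch 2 0.70) and 0.82 in 3′READS (0.66 and 0.64), and 0.01 and 0.02 for all genes. Both siPaf1 libraries exceeded both siCdc73 libraries for 7 members in RNA-seq (22.1% of all genes) and 14 in 3′READS (20.7%), and the reverse held for 0 (21.3% and 19.1%).

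Actc1 differed most in RNA-seq, by 4.71 ± 0.38 (adjusted p = 2.74e-10), with 21.7 and 93.5 CPM in siPaf1 and 0.619 and 2.87 CPM in siCdc73. The groups were far apart in each batch (4.50 and 4.86). In 3′READS its difference of 3.09 depended on batch 2, since each batch 1 library had 1 read: without the batch 2 siPaf1 library it was 0.66 (adjusted p = 0.922) and without that of siCdc73 0.33 (adjusted p = 1). Myh1 differed by 3.04 ± 0.37 and Neb by 1.76 ± 0.32 in RNA-seq. Tnnt1 differed by 2.68 ± 0.34 in RNA-seq (adjusted p = 1.11e-06) and 2.82 ± 0.34 in 3′READS (adjusted p = 9.86e-05).

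Acta2 differed by 2.55 ± 0.28 in 3′READS (adjusted p = 6.43e-05), Myh3 by 2.37 ± 0.36 and Acta1 by 1.68 ± 0.31. For each of these genes both siPaf1 libraries exceeded both siCdc73 libraries. Chrng differed by 1.19 ± 0.28 in RNA-seq and 1.43 ± 0.33 in 3′READS, and Des by 0.97 ± 0.22 and 1.05 ± 0.28. Sgca, Actn3 and Tnni1 (RNA-seq) and Tpm2 (3′READS) were also higher in siPaf1, by 1.33, 0.73, 0.82 and 0.82. Myl1 was the exception in both assays, higher in siCdc73, with −0.97 ± 0.31 in RNA-seq and −1.46 ± 0.45 in 3′READS. For Tpm1, which rose in each knockdown, the difference was not called in either assay.

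**Figure D4:**
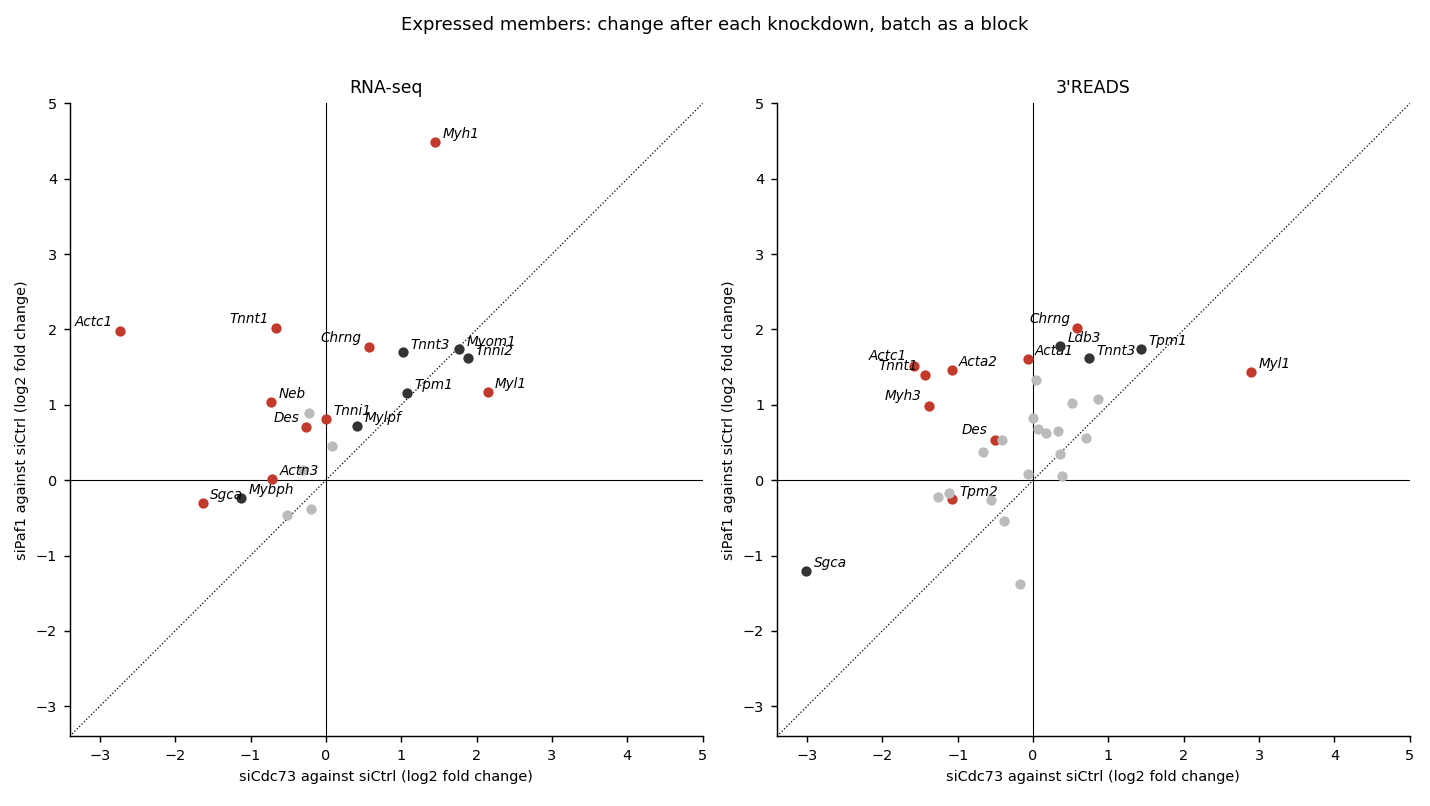
log2 fold change against siCtrl in siCdc73 (horizontal) and siPaf1 (vertical) of the expressed members, with the batch as a block. Red points differed between the knockdowns in the direct test, black points changed in at least 1 knockdown, grey points did neither, and the dotted line marks equal change. The axes share the siCtrl libraries, so the alignment of the points is not a result.

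Myh1, Actc1, Tnnt1 and Neb held in the direct RNA-seq test with each library left out in turn, and Myh3, Acta1, Acta2 and Tnnt1 in 3′READS. Without the siPaf1 library that stood apart, 6 members were called in 3′READS, all higher in siPaf1, and Myl1 (−1.88, adjusted p = 0.155), Tpm2 (0.75, adjusted p = 0.0892) and Des (0.66, adjusted p = 0.128) were no longer called, beside Actc1.

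The last comparison was siSki8 with siCtrl. Ski8 is a subunit that also belongs to the cytoplasmic Ski complex. Few members were called in this comparison, as were few of all genes. In RNA-seq 1 of 24 rose (2.93% of all genes) and 1 fell (2.5%), and in 3′READS edgeR called 0 of 34 in either direction (0.0795% and 0.0715% of all genes). In 3′READS, 1 member was higher and 3 lower at an unadjusted p under 0.05 in that fit (723 and 741 of all 12579 genes). DESeq2 called 0 members there. With a single siSki8 library per assay, the fit assumes that it varies as the other groups do.

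Myh1 was at 12.7 CPM in siSki8 against 2.19 CPM in the siCtrl library of batch 2 and rose by 2.17 ± 0.45 (adjusted p = 0.00367). Sgca was at 7.42 CPM against 31.3 CPM and fell (−1.96 ± 0.44, adjusted p = 0.00755). Neither call held with each library left out in turn, since without siCtrl of batch 2 edgeR called 0 members (Myh1 adjusted p = 0.182, Sgca adjusted p = 0.126). In 3′READS, Acta2 was at 2272 CPM against 1743 CPM, Myh3 at 59.2 against 48.1 and Chrng at 3.30 against 7.85 CPM. None of these passed the test. The median log2 fold change of the expressed members with the block was −0.08 in RNA-seq and −0.26 in 3′READS, beside 0.05 and −0.03 for all genes. Against the batch 2 control alone, the members' median was −0.19 and −0.01. Without the block, where batch 2 is set against both control libraries, the members' median was 0.46 and 0.20.

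Between assays, 19 members were expressed in both. For siPaf1, 16 of the 19 had the same sign in RNA-seq and 3′READS, and Tnnt1, Tnnt3, Tpm1 and Chrng rose in both. Mybph, Neb and Actn3 had opposite signs. For siCdc73, 17 had the same sign, with Myl1 and Tpm1 rising and Sgca falling in both. For the direct comparison 16 did, with Myl1, Actc1, Tnnt1, Des and Chrng called in both, and for siSki8 12 did. The assays were made from the same groups and batches, so they are not independent samples of the knockdown.

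The position of transcript ends within members was examined next, since Paf1C depletion was studied for its effect on alternative polyadenylation (APA). Use of sites upstream of the last exon (CDS-APA) was testable in 5 members (Tpm1, Ttn, Myl1, Myl4 and Chrnd), and use of proximal against distal sites in the last exon (3′UTR-APA) in 5 (Chrna1, Chrnd, Tmem8c, Tnnt1 and Tnnt2). Tpm1 and Ttn shifted to upstream ends in siPaf1, and Tpm1 in siCdc73 also.

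Tpm1 reads lay mainly at the last-exon site (53.6% of its reads) and at the upstream site printed above (35.1%), which lies 8 bases inside the end of a shorter protein-coding transcript. The upstream site took 20.5% and 20.2% of the reads at these sites in siCtrl (95% Wilson intervals 18.5 to 22.6 and 19.1 to 21.3). It took 39.0% and 49.1% in siPaf1 (37.6 to 40.5 and 48.5 to 49.7) and 36.6% and 40.7% in siCdc73 (34.8 to 38.5 and 39.9 to 41.4). In siSki8 it took 17.5% (16.6 to 18.5). The siPaf1 and siCdc73 shares lay above siCtrl in both batches, while siSki8 lay below it. The log2 ratio of upstream to last-exon reads rose by 1.62 ± 0.45 in siPaf1 (adjusted p = 0.00313) and 1.30 ± 0.45 in siCdc73 (adjusted p = 0.0221) with the block.

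Ttn reads lay mostly at sites upstream of the last exon, the largest with 65.4% of its reads at the end of a shorter titin transcript, and the last-exon site took 6.93%. The upstream share was 78.9% and 83.8% in siCtrl (56.7 to 91.5 and 78.4 to 88.1), 97.5% and 97.9% in siPaf1 (91.4 to 99.3 and 95.3 to 99.1), 97.1% and 94.3% in siCdc73 (85.5 to 99.5 and 91.0 to 96.4) and 82.7% in siSki8 (72.6 to 89.6). The last-exon reads behind these shares were few, 4 and 36 in siCtrl, 2 and 5 in siPaf1 and 1 and 17 in siCdc73. The ratio rose by 2.64 ± 0.83 in siPaf1 (adjusted p = 0.00978), and in siCdc73 its change of 1.80 ± 0.86 did not pass (adjusted p = 0.122). The intervals cover counting error only.

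**Figure D5:**
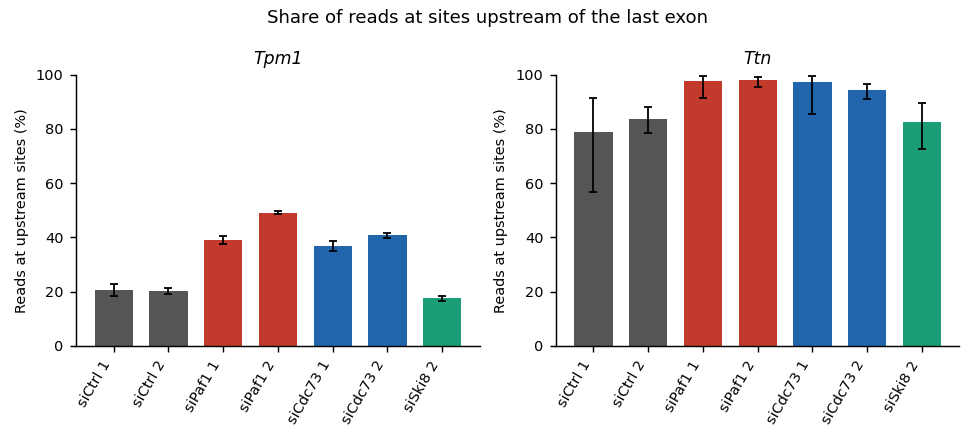
Share of reads at sites upstream of the last exon (percent) for Tpm1 and Ttn in the 7 3′READS libraries, with 95% Wilson intervals as error bars. The Tpm1 bars stand at 20.5% and 20.2% in siCtrl and at 36.6% to 49.1% in siPaf1 and siCdc73.

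With the block, 2 of 5 members had more upstream ends in siPaf1, beside 18.9% of the 1766 genes tested, and 1 of 5 in siCdc73, beside 20.4%. No member had fewer, beside 4.08% and 2.77%. In siSki8 edgeR called 0 of 5 (0.0566% of genes) and 0 had an unadjusted p under 0.05. Without the block none of the members passed: Tpm1 had adjusted p = 0.133 and 0.209 in the 2 knockdowns and Ttn 0.125 and 0.268, where 2.21% and 4.02% of all genes were called towards upstream ends and 0.17% and 0.113% away from them. All calls made with the block were lost when either siCtrl library was left out. The siCdc73 call was also lost without either siCdc73 library, and not every siPaf1 call held without siPaf1 of batch 2. In the last exon, edgeR called 0 of 5 members in any knockdown with or without the block, and 0 had an unadjusted p under 0.05 (background with the block: 5.1% towards the proximal site and 1.69% away from it in siPaf1, 3.88% and 0.416% in siCdc73, and 0.307% and 0% in siSki8). Chrna1, the member with most reads there, used its proximal site for 70.1% and 69.8% of reads in siCtrl, 66.7% and 66.0% in siPaf1, 66.4% and 69.6% in siCdc73 and 68.4% in siSki8. The proximal share of Tnnt1 followed the batch, at 34.7% and 6.99% in siCtrl and 27.4% and 7.17% in siPaf1.

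Other genes of the muscle program give the setting for these values. Of 91 other muscle structure and signalling genes, 42 were tested in RNA-seq. There 9 rose and 6 fell in siPaf1 (16.3% and 16.2% of all genes), 4 and 5 in siCdc73 (19.4% and 20.5%) and 0 and 3 in siSki8 (2.93% and 2.5%). In 3′READS 57 were tested, with 6 up and 8 down in siPaf1 (9.74% and 9.08%) and 5 and 4 in siCdc73 (10.8% and 11.8%). In siSki8 0 and 0 were called (0.0795% and 0.0715%). At an unadjusted p under 0.05, 1 was higher and 7 lower, beside 723 and 741 of all 12579 genes. The median changes of these other genes in siPaf1 were 0.00 and 0.32, below those of the 42 members, a difference that was not tested. The small heat shock protein Cryab and the Z-disc protein Pdlim5 rose in RNA-seq in siPaf1 (1.00 and 0.99) and in siCdc73 (0.85 and 0.95). The sarcoglycan Sgce fell in RNA-seq in siPaf1 (−1.49 ± 0.27) and in siCdc73 (−1.80 ± 0.28), and Sgcb fell in siCdc73 (−1.65 ± 0.24). In 3′READS, Smpx, Mustn1 and Synpo2 rose in siPaf1 (2.47 ± 0.52, 1.63 ± 0.33 and 1.32 ± 0.28), and Mustn1 in siCdc73 also (1.58 ± 0.34).

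Of 19 myogenic regulators and surface markers, 17 were tested in 3′READS. There 5 rose and 2 fell in siPaf1 (9.74% and 9.08% of all genes), 7 and 3 in siCdc73 (10.8% and 11.8%) and 1 and 0 in siSki8 (0.0795% and 0.0715%). In RNA-seq 7 were tested, with 2 up and 1 down in siPaf1 (16.3% and 16.2%). In siCdc73 3 rose and 2 fell (19.4% and 20.5%), and in siSki8 0 and 2 (2.93% and 2.5%). Cdh15, the muscle cadherin of myoblasts, fell in both assays in siPaf1 (−0.93 ± 0.22 and −1.08 ± 0.29) and in siCdc73 (−1.32 ± 0.22 and −1.86 ± 0.31). Cdkn1a, the cell cycle inhibitor p21, rose in siCdc73 (1.49 ± 0.26 and 1.28 ± 0.27), and Tead4 rose in 3′READS in each knockdown (1.37, 2.59 and 4.54). Tead4 was at 5.85 and 1.89 CPM in siCtrl and 18.2 and 4.23 CPM in siPaf1, with ranges that overlapped. Myog was at 7.05 and 13.1 CPM in siCtrl, 6.84 and 8.33 in siPaf1 and 2.17 and 4.19 in siCdc73 in 3′READS. In the direct edgeR test Myog was higher in siPaf1 than in siCdc73 (1.22 ± 0.39, adjusted p = 0.0473). Id3, an inhibitor of myogenic helix-loop-helix factors, rose in siPaf1 in both assays (1.16 ± 0.33 and 1.17 ± 0.32) and fell in siSki8 in RNA-seq (−1.74 ± 0.45). In RNA-seq Id3 was at 916 and 198 CPM in siCtrl and 922 and 1092 CPM in siPaf1, so batch 1 was level. In siSki8 it was at 108 CPM, against 198 CPM in the batch 2 control. In 3′READS Id3 was at 494 and 413 CPM in siCtrl and 717 and 1518 CPM in siPaf1. Of 21 nonmuscle or smooth muscle contractile genes, 11 were tested in RNA-seq and 21 in 3′READS. In RNA-seq 5 rose and 2 fell in siPaf1 (16.3% and 16.2% of all genes), and 3 and 1 in siCdc73 (19.4% and 20.5%). In 3′READS 6 rose and 1 fell in siPaf1 (9.74% and 9.08%), and 2 and 3 in siCdc73 (10.8% and 11.8%). Calponin Cnn1 rose in siPaf1 in RNA-seq by 1.54 ± 0.31 and Actg2 in 3′READS by 1.74 ± 0.36.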

How the data were processed

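RNA-seq and 3′READS libraries (7 each, 14 of the 66 samples) were used; the other samples were not used here. The authors aligned reads with Bowtie2 (version not given in the sources used here) to mm9, and deposited raw RNA-seq read counts over coding regions with RPKM values (the authors' RPKM were not tested), and raw 3′READS counts of reads with untemplated terminal Ts at each poly(A) site. Here counts were summed per gene over sense sites, or taken from the transcript row with the highest mean, and tested with edgeR 4.0.16 (trimmed-mean scaling, quasi-likelihood test, low-count filter, all 7 libraries in 1 fit, adjusted p threshold 0.05) in R 4.3.3. CPM used edgeR scaling. APA was tested as an isoform by knockdown interaction in genes averaging 20 reads or more, leaving out sites under 5% of a gene's reads. Scripts were tested on simulated data. DESeq2 1.42.0 and other settings were alternatives.

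The replicate number is the batch in the labels, so it pairs the libraries. Batch deviations correlated between groups at r = 0.668 to 0.800 over 5969 genes in RNA-seq and 0.499 to 0.676 over 11260 in 3′READS. The study's methods name no batch term, so the main test had none. It gave no calls for gene levels, so the blocked values are printed. The study's own rule, a fold over 1.4 with Fisher's exact p under 0.01, was run on pooled reads as an alternative.

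Members and lists were chosen with earlier results of these data known. Values per library are given for members called in either fit and for the 6 most read, and other muscle genes are some of the strongest calls among those averaging 50 reads or more. The sequence of 1 further 3′ end is not reported here.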

Additional observations from a re-analysis of the deposited data

Results flagged for a closer look

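For 4 members in each assay, siPaf1 moved one way and siCdc73 the opposite way from siCtrl in both batches, and the difference between the knockdowns passed the direct test with the batch as a block (log2, siPaf1 minus siCdc73). In RNA-seq these were Actc1 (4.71), Tnnt1 (2.68), Neb (1.76) and Des (0.97). In 3′READS they were Myh3 (2.37), Acta2 (2.55), Tnnt1 (2.82) and Des (1.05). How many of all genes met both conditions was not counted, so whether the members stand out here was not tested. The direct test alone called 14.6% of all genes higher in siPaf1 and 13.6% lower in RNA-seq. In 3′READS it called 8.08% and 6.3%.

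Upstream antisense sites were left out of the gene sums. At one of these, beside the start of Tnnt2 (mm9 chromosome 1, position 137736732), reads were more frequent in siPaf1 (mean 2.06 CPM, 17 and 26 reads) and siSki8 (1.69 CPM, 14 reads) than in siCtrl (0.542 and 0.510 CPM, 4 and 5 reads). In siCdc73 the batches differed, with 2 and 32 reads. The difference was not tested.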

How the results depend on the processing

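Comparisons are given in the order siPaf1, siCdc73 and siSki8 against siCtrl, then siPaf1 against siCdc73. Beside the 0 members called by edgeR without a batch term, the replicate block gave 13, 10, 2 and 10 in RNA-seq and 7, 7, 0 and 9 in 3′READS. DESeq2 without the block gave 1, 1, 0 and 4, and 2, 0, 0 and 3, and omitting the low-count filter gave 1 for siPaf1 in RNA-seq. With the block, library size alone gave 13, 11, 2 and 12, and 11, 8, 0 and 9; DESeq2 gave 12, 7, 2 and 7, and 5, 6, 0 and 8; and no filter gave 13, 10, 2 and 10, and 11, 8, 0 and 10. Chosen after seeing the data, the block with transcripts summed gave 12, 10, 2 and 10 in RNA-seq and with 3′-most exon sites 7, 8, 0 and 8 in 3′READS. The study's rule on pooled reads, without replicates, gave 13, 16, 11 and 14, and 24, 18, 14 and 24. That rule takes no account of the spread between libraries. Shares of all genes are not given for these alternative settings, so the counts show only how the calls depend on the setting.

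Median log2 changes moved by more than their spread as follows. In RNA-seq, siPaf1 was 1.07 with DESeq2, 1.09 with DESeq2 and the block and 0.70 by the study's rule, siCdc73 was −0.52 by that rule, and the direct comparison was 0.90 with library size alone, 0.91 with the block also and 0.86 by the study's rule. In 3′READS, siCdc73 was −0.37 with 3′-most exon sites (−0.32 with the block) and −0.38 for members with at least 50 reads. For siSki8 the 3′READS sign turned with the block: −0.26, −0.26 with library size alone, −0.29 with DESeq2, −0.26 without the filter and −0.28 with 3′-most exon sites. The direct 3′READS median was 0.82 with the block, 0.98 with library size alone, 0.79 with DESeq2, 0.95 with 3′-most exon sites and 1.08 by the study's rule, and with the block also 1.02, 0.88 and 1.01, and 0.82 without the filter. For CDS-APA the block gave 2 members in siPaf1 (2 also with no 5% limit, chosen after seeing the data) and 1 in siCdc73, and for 3′UTR-APA the block with no 5% limit gave 1 in siCdc73. The causes were not tested.

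Leaving out each library in turn, with and without the block, gave 0 to 13, 0 to 13, 0 to 5 and 0 to 10 members in RNA-seq and 0 to 13, 0 to 9, 0 to 0 and 0 to 10 in 3′READS, with medians of −0.25 to 2.01, −1.20 to 1.01, −0.22 to 1.47 and −0.30 to 1.85, and −0.010 to 1.11, −0.68 to 0.47, −0.46 to 0.57 and 0.087 to 1.27. With the block, the RNA-seq siPaf1 median was 1.15 and 0.62 without siCtrl of batch 1 and of batch 2 and 1.04 without siPaf1 of batch 2, and the direct RNA-seq median was 0.78 without the last. For siCdc73 the blocked median turned sign, to 0.31 in RNA-seq without siCdc73 of batch 1, 0.05 without siCtrl of batch 1 and, in 3′READS, 0.08 and 0.05 without siCtrl and siCdc73 of batch 1. In 3′READS with the block it was 0.40 for siPaf1 without siCtrl of batch 2, −0.29 for siCdc73 without siCdc73 of batch 2, −0.46 and −0.01 for siSki8 without siCtrl of batch 2 and of batch 1, and in the direct comparison 0.57 without siPaf1 of batch 2, 0.73 without siCdc73 of batch 1 and 0.82 for each of the other 4 libraries. For CDS-APA it gave 0 to 2 members in siPaf1, 0 to 1 in siCdc73 and 0 in siSki8, and for 3′UTR-APA 0 in each. Without the block, 11 values for single genes turned sign when a library was left out and the batches no longer balanced. In RNA-seq against siCtrl these were, without siPaf1 of batch 2, Myl1 (−0.25), Mylpf (−1.21) and Tnni1 (−0.64) in siPaf1, Mylpf (−0.19) without siCtrl of batch 1, Tnnt3 in siCdc73 (−0.26) without siCdc73 of batch 2, and Actn3 in siCdc73 (0.55) without siCtrl of batch 2. In the direct comparison they were Myl1 without siCdc73 of batch 2 (1.05, and 0.67 in 3′READS), Tnni1 without siPaf1 of batch 2 (−0.84) or siCdc73 of batch 1 (−0.17), and Actc1 in 3′READS without siPaf1 of batch 2 (−1.62). Over all single omissions without the block, Myl1, Mylpf and Tnni1 ranged from these values to 2.35, 2.66 and 2.17 in siPaf1, Tnnt3 and Actn3 to 2.35 and −1.67 in siCdc73, and in the direct comparison Myl1 to −2.78 (−3.77 in 3′READS), Tnni1 to 2.67 and Actc1 to 4.53. With the block none of the named values turned sign.

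Under the other scalings with the block, Tnni1 lost its siPaf1 call, Mybph, Tnnt3 and Actn3 their siCdc73 calls and Myl1, Tnni1 and Actn3 the direct call in RNA-seq. In 3′READS, Tnnt3 and Ldb3 lost the siPaf1 call, Sgca the siCdc73 call and Myl1 the direct call. Depth limits members under about 20 reads in a batch 1 library, such as Myl1, Actc1, Ldb3, Neb and Sgca at 3′ ends, and siSki8 rests on 1 library per assay.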
